A study of Mus musculus with 6 samples.

Results

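CD4 T cells of RBPJind mice given doxycycline (Dox), the ON group, were compared with CD4 T cells of wild type mice, the WT group. The 2 ON and 2 WT libraries were chosen by their labels and make up 4 of the 6 libraries of the series. RNA came from cells sorted from spleen. The ON cells were CD3+CD4+CD25-CD45RBint, came from RBPJind mice given Dox in their water for 4 weeks, and are labelled immature naive cells. The WT cells were CD3+CD4+CD25-CD45RBhi and are labelled mature naive cells; they also carry the label Dox, with no duration. Genotype, sort gate and maturity differed together, so their shares in any difference cannot be told apart. The remaining 2 libraries, OFF, came from RBPJind mice with the CD45RBint gate, given Dox for 3 weeks and taken off it for 1 week, and are used here only beside ON. The sources used here do not give the promoter behind the inducible Rbpj, the cells in which it is active, the age of the animals or any pooling of them. Nothing says that the libraries of a group came from separate animals. If they did not, the p-values may measure technical spread.

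Of 21697 protein-coding genes, 12667 were abundant enough to test. At an adjusted p under 0.05, which is what called means throughout, 1463 of them were higher in ON (11.5%) and 579 lower (4.57%), together 2042 (16.1%). Rises were larger than falls. The median log2 fold change was 1.14 among genes called higher and -0.72 among genes called lower, against 0.03 over all genes tested. A change of at least 4-fold was seen for 459 genes called higher and 47 called lower, and of at least 16-fold for 42 and 4. Without WT 1 the total was 439 (357 higher and 82 lower) and without WT 2 it was 325 (269 and 56), so most calls needed both WT libraries; 249 higher and 42 lower calls held whichever of the 6 libraries was left out. With upper quartile scaling the split was 1213 higher to 806 lower in place of 1463 to 579, and with the replicate number as a block 1264 genes were called.

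**Figure D1:**
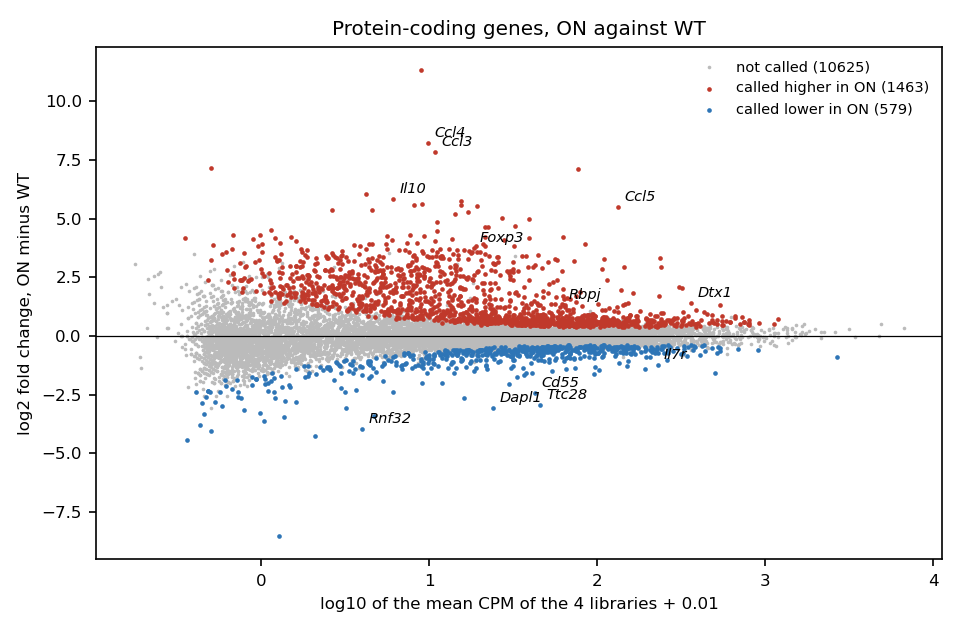
Log2 fold change of ON against WT (vertical axis) against the mean CPM of the 4 libraries on a log10 scale (horizontal axis), 1 point per protein-coding gene tested, with 1463 called higher in red, 579 called lower in blue and the rest in grey. Red points reach further from 0 than blue points, and the median of called genes is 1.14 above and -0.72 below.

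The libraries were of like depth, with 17025551 to 19319183 counts in genes over WT and ON, but the groups differed in other ways. Genes took 33.7% and 35.3% of the reads in the table in WT and 43.2% and 46.9% in ON, and reads that did not align took 21.8% and 18.8% in WT and 14.8% and 9.34% in ON. The ON libraries differed more from each other (median absolute log2 difference 0.252 over protein-coding genes) than the WT libraries did (0.152). The part of these differences in the results was not tested. The labelled cell type had its markers. Cd4, the coreceptor gene, stood at 644 and 604 CPM (counts scaled to the depth of each library) in WT and 691 and 644 in ON. The 8 CD4 T cell markers summed to 2705 and 2507 CPM in WT and 2938 and 3520 in ON. Among them Cd3g differed most between the ON libraries in CPM, at 534 in ON 1 and 1060 in ON 2. None of the 8 was called higher and Cd28 was called lower, a call lost without WT 1, WT 2 or ON 2; without ON 1 or OFF 2 there were 2 called higher.

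RBPJ is the DNA-binding protein of the Notch pathway. When a Notch receptor meets its ligand on a neighbouring cell, its inner part is cut free, enters the nucleus and joins RBPJ and a Mastermind coactivator to switch on target genes. Without it, RBPJ sits with corepressors. The pathway commits progenitors to the T cell lineage in the thymus, and in the periphery it takes part in the differentiation of helper T cells. CD45RB is an isoform of the phosphatase CD45 that naive CD4 T cells carry at high level and that falls on antigen-experienced and regulatory cells.

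RBPJ recognises a core of TGGGAA, and the starts of 3 Notch target genes called below are shown because target genes are where RBPJ acts. They are RefSeq windows on GRCm38.p6, from 250 bases before to 50 after the start, written 5′ to 3′ on the gene's strand, in lower case with any core, on either strand, in capitals. They lie at chr5:120711620-120711919 (minus strand) for Dtx1, chr2:11642542-11642841 (plus strand) for Il2ra and chr9:88731801-88732100 (minus strand) for Bcl2a1d. Ccnd1 is named only.
Dtx1: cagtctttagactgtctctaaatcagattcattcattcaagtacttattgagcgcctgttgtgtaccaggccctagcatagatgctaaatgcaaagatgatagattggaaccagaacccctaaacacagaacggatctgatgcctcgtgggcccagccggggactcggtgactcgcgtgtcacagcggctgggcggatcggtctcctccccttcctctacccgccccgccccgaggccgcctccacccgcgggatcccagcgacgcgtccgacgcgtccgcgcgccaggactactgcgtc
Il2ra: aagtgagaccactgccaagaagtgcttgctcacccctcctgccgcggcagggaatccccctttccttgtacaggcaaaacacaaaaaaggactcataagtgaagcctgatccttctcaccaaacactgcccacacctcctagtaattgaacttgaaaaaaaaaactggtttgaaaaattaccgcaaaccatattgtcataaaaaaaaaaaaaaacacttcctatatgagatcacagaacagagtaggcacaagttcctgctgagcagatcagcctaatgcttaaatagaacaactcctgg
Bcl2a1d: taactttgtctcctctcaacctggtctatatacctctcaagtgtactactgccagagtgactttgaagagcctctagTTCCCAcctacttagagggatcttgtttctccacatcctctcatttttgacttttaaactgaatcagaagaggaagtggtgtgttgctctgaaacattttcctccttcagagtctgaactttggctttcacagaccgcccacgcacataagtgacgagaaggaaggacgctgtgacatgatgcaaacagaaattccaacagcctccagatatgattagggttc
The capitals in Bcl2a1d mark a core on the opposite strand that starts 173 bases before the gene start. Of the 32851 windows of this length in the table, 25.6% hold TGGGAA or its complement, so a match is common; a window without one says only that these letters are absent there.

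Few genes of the pathway's machinery were called apart from Rbpj itself. Rbpj (ENSMUSG00000039191; GRCm38 chromosome 5, 53466152 to 53657362) was at 36.1 and 35.3 CPM in WT and 98.2 and 79.6 in ON. The ON libraries were both above the WT libraries, by 2.49-fold (log2 fold change 1.32 ± 0.14, SE; adjusted p = 5.35e-04). OFF, at 29.8 and 31.7 CPM, was lower than ON (adjusted p = 0.00195). A whole-gene count cannot separate the induced from the endogenous gene, and Rbpj has near-identical processed pseudogenes. One of them, Rbpj-ps3, named after its values were seen, was at 0.359 and 0.174 CPM in WT and 46.9 and 36.1 in ON, so reads may be split between the copies. Of the 28 genes of the receptor and machinery list, all tested, 2 were called higher and 1 lower, shares below those over all genes (median log2 fold change 0.06). The other rise was Snw1, which encodes SKIP, a coactivator that binds RBPJ, at 94.3 and 94.8 CPM in WT and 129 and 166 in ON; the fall was Maml2, a Mastermind coactivator, at 101.2 and 115 CPM in WT and 56.3 and 63.3 in ON. Snw1 lost its call without WT 1 or WT 2 and Maml2 without WT 2; without ON 2, OFF 1 or OFF 2 there were 2 falls. The receptors were not called: Notch1 was at 255 and 321 CPM in WT and 338 and 349.5 in ON (adjusted p = 0.257), Notch2 had a log2 fold change of 0.09 (adjusted p = 0.673) and Notch3 one of -0.85 at about 1 CPM (adjusted p = 0.364).

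Of 14 Notch targets 8 passed the filter on low counts. In OFF, set against the same WT libraries, 3 of these were called higher and 0 lower (median 0.78). In ON 4 of the 8 were called higher, none lower (median 1.32), beside 11.5% and 4.57% over all genes tested. All 4 kept the call with any library left out. Dtx1, a gene for an E3 ligase that regulates Notch itself (ENSMUSG00000029603; chromosome 5, 120680202 to 120711927), was at 198 and 198 CPM in WT and 492 and 562 in ON, with no overlap (2.67-fold, log2 fold change 1.41 ± 0.15, adjusted p = 6.58e-04), while OFF stood at 195 and 145. Il2ra, the alpha chain of the interleukin 2 receptor, known on the cell surface as CD25 (chromosome 2, 11642807 to 11693193), was at 4.19 and 4.65 CPM in WT and 27.7 and 24.9 in ON (5.93-fold, adjusted p = 6.37e-05). Both gates were CD25-, so Il2ra transcript differed within cells sorted as lacking the protein. Ccnd1, cyclin D1 (chromosome 7, 144929931 to 144939925, overlapping 1 protein-coding gene on the other strand), was at 2.81 and 2.56 CPM in WT and 18.6 and 13.4 in ON (5.94-fold, adjusted p = 3.31e-04). Bcl2a1d, an anti-apoptotic relative of Bcl2 with near-identical copies nearby (chromosome 9, 88723285 to 88731914), was at 2.09 and 1.22 CPM in WT and 14.5 and 9.56 in ON (7.25-fold, adjusted p = 0.00205). Between the RBPJind groups, Dtx1 was lower in OFF than in ON (adjusted p = 0.00234), while Il2ra at 25.3 and 28.8 CPM, Ccnd1 at 11.4 and 12.9 and Bcl2a1d at 3.70 and 6.49 were not called (adjusted p = 0.904, 0.328 and 0.0955). The Hes and Hey repressors, textbook targets in many tissues, were under the filter, Hes1 with 1 and 5 counts in WT and 8 and 3 in ON.

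The 15 largest rises among genes that kept their call with any library left out were led by secreted factors of effector T cells. Ccl4, a chemokine of activated lymphocytes (chromosome 11, 83662584 to 83664683), was at 0.120 and 0 CPM in WT and 21.6 and 17.7 in ON. That is 2 counts against 780, a ratio of 333 with a 95% counting interval of 91.9 to 2755. Ccl3, its neighbour and paralog, had 3 counts in WT and 862 in ON (ratio 245, interval 83.7 to 1192; 0.120 and 0.0581 CPM against 20.2 and 23.1). Both were nearly silent in WT. Ccl5, another chemokine, was at 8.19 and 3.49 CPM in WT and 268 and 254 in ON (44.8-fold, adjusted p = 3.21e-04). Il10, an anti-inflammatory cytokine (chromosome 1, 131019845 to 131024974), was at 0.179 and 0.233 CPM in WT and 14.3 and 9.86 in ON (56.5-fold, log2 fold change 5.82 ± 0.46, adjusted p = 1.04e-04). Serpina3g, a serine protease inhibitor of activated T cells with close paralogs, was at 2.15 and 2.67 CPM in WT and 89.0 and 64.5 in ON (31.7-fold, adjusted p = 2.44e-05). The rest of the 15 were Gzmk (granzyme K), Tigit, Lag3, Nkg7 (a cytotoxic granule protein), Havcr2, Chst2 (a sulfotransferase), Aurkb (a mitotic kinase), Serpina3f, Rgs16 (a regulator of G protein signals) and Entpd1, between 17.8-fold and 48.4-fold higher. In each of the 15 both ON libraries were above both WT libraries, as the choice of genes required. Gzmk overlaps another protein-coding gene on the opposite strand, and strand use in counting is not given.

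OFF, the other CD45RBint group, showed these rises too, at lower levels for some genes. Ccl4 was at 3.52 and 6.49 CPM in OFF, Ccl5 at 57.9 and 90.7 and Il10 at 1.68 and 2.46, each below ON (adjusted p = 0.00945, 0.0495 and 0.00640). Serpina3g at 19.01 and 26.3 CPM was also below ON (adjusted p = 0.00563). Lag3, at 0.538 and 1.16 CPM in WT, 39.2 and 27.8 in ON, next to 20.4 and 29.0 in OFF, was not called between OFF and ON (adjusted p = 0.330), nor was Entpd1 (adjusted p = 0.192). ON and OFF were set against the same WT libraries, so their changes from WT are not independent.

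**Figure D2:**
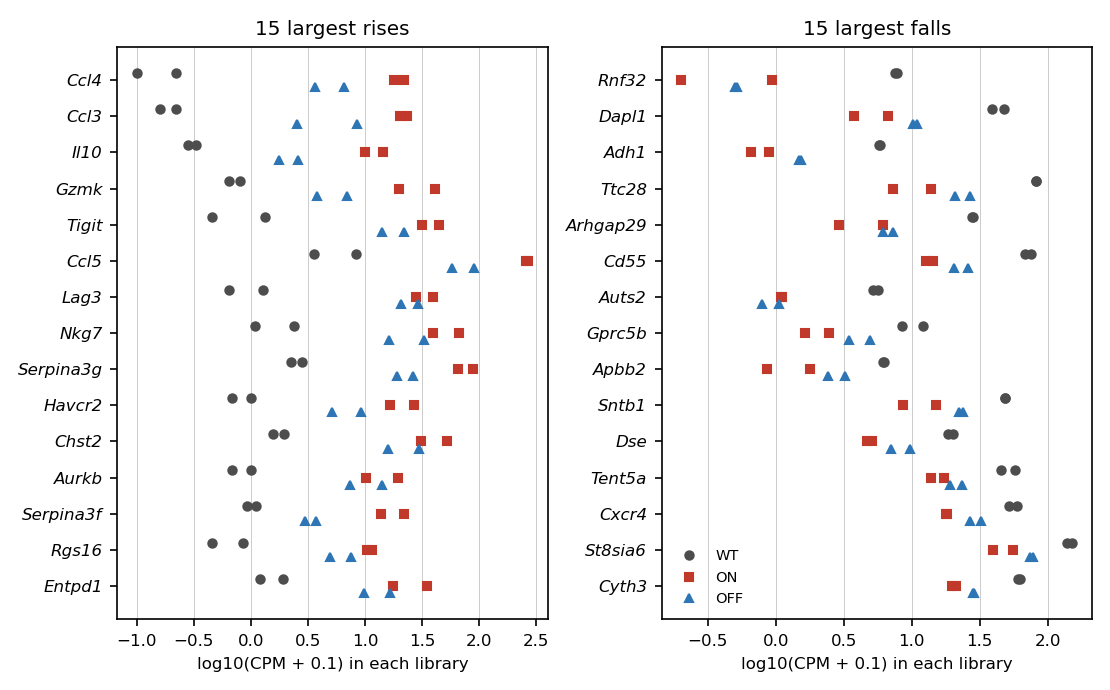
CPM of the 15 largest rises (left) and the 15 largest falls (right) among genes that kept their call with any library left out, on a log10 scale after adding 0.1, 1 point per library of WT (circles), ON (squares) and OFF (triangles). The ON points lie apart from the WT points for all 30 genes, which the choice of genes required; for Ccl4 they are 21.6 and 17.7 CPM against 0.120 and 0, and for Rnf32 0.102 and 0.842 against 7.66 and 7.38.

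The 15 largest falls were smaller, with log2 fold changes from -3.96 to -1.59, and the genes are of more varied function. Rnf32, a ring finger gene (chromosome 5, 29195992 to 29228457), was at 7.66 and 7.38 CPM in WT and 0.102 and 0.842 in ON (log2 fold change -3.96 ± 0.47, adjusted p = 9.92e-04). Dapl1, a transcript of resting naive T cells (chromosome 2, 59484653 to 59505020), was at 47.7 and 38.7 CPM in WT and 3.68 and 6.54 in ON (8.43-fold lower, adjusted p = 1.04e-04). Ttc28 was at 81.6 and 81.5 CPM in WT and 7.21 and 13.8 in ON (7.76-fold lower), and Arhgap29, a GTPase-activating gene, at 28.3 and 27.7 against 2.81 and 6.05 (6.29-fold lower). Cd55, which shields cells from complement, was at 75.7 and 68.4 CPM in WT and 12.7 and 14.2 in ON (5.36-fold lower, adjusted p = 4.85e-05). Cxcr4, the receptor for CXCL12, was at 59.7 and 52.1 CPM in WT and 17.9 and 17.8 in ON (3.12-fold lower), and St8sia6, a sialyltransferase gene, at 152 and 137 against 39.2 and 55.0 (3.07-fold lower). The others were Adh1, Auts2, Gprc5b, Apbb2, Sntb1, Dse, Tent5a and Cyth3. None of the 15 falls was called between OFF and ON; Dapl1 was at 10.2 and 10.8 CPM in OFF (adjusted p = 0.0847 against ON) and Cd55 at 20.4 and 25.9 (0.0561).

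Genes of naive T cells were lower in ON in part. Of 23 genes of naive homing and survival 7 were called lower and 2 higher (median -0.24), and of 25 transcription factors and RNA regulators of quiescence 8 were called lower and none higher (median -0.23), against 4.57% lower over all genes. Il7r, the receptor for the survival cytokine interleukin 7, was at 358 and 285 CPM in WT and 115 and 159 in ON (2.35-fold lower, adjusted p = 0.00302). Ly6c1, a surface protein of a subset of naive cells, was at 28.5 and 26.0 CPM in WT and 11.96 and 9.32 in ON (2.56-fold lower). Tob1, an antiproliferative gene, was at 32.3 and 29.2 CPM in WT and 10.7 and 15.6 in ON (2.34-fold lower). These 3 calls held with any library left out. Foxo1, which maintains naive T cells, was at 317 and 302 CPM in WT, 189.8 and 189 in ON, next to 344.5 and 348 in OFF, lower in ON than in WT (adjusted p = 0.00380) and than in OFF (0.00866); its first call was lost without WT 1 or WT 2. Zfp36l2, an RNA-decay factor, was 2.01-fold lower (lost without WT 1), Klf2, which drives exit from lymphoid organs, 1.51-fold lower (lost without WT 1 or WT 2), and Rc3h1, Roquin, 1.61-fold lower (lost without either). Ccr7, a receptor that brings naive cells into lymph nodes, was at 229 and 213 CPM in WT and 143 and 194 in ON, which was not called (adjusted p = 0.116). Without WT 1 the naive list had 4 genes called lower and the quiescence list 1, and without WT 2 they had 4 and 2; the 2 naive genes called higher, Gimap4 and Gimap6, became 1, 0 and 1 without WT 1, WT 2 or ON 2.

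Genes that mark maturation after the thymus did not move one way. Of 18, 3 (16.7%) were called higher and 4 (22.2%) lower (median 0.17), beside 11.5% and 4.57% over all genes tested. The falls were Il7r, Ly6c1, Cd55 and the costimulatory receptor Cd28, and the rises Il2ra, the DNA methyltransferase Dnmt1 and the MHC class I gene H2-Q6, at 84.8 and 79.2 CPM in WT and 214 and 194 in ON (2.49-fold, adjusted p = 3.09e-04), whose near-identical relatives make its count uncertain. Of 21 genes known from thymocytes and recent emigrants to the periphery 18 were tested, with 9 (50%) called higher and 2 (11.1%) lower (median 0.93). OFF, set against the same WT libraries, also had 9 called higher, and 0 lower (median 1.2). Plxnd1, a semaphorin receptor of thymocytes, was at 12.6 and 12.5 CPM in WT and 66.4 and 66.0 in ON (5.28-fold, log2 fold change 2.40 ± 0.13, adjusted p = 2.44e-05), with OFF at 65.3 and 62.7. Cd8a, one chain of the CD8 coreceptor, was at 0.419 and 1.28 CPM in WT and 5.72 and 5.85 in ON (6.73-fold, adjusted p = 0.00322), while Cd8b1, the other chain, was at 14.0 and 12.6 against 12.4 and 17.9 (adjusted p = 0.587). The recombinase genes Rag1 and Rag2, active in developing thymocytes, were under the filter with at most 11 counts in any WT or ON library. Several of the 9 rises, such as Ikzf2 (Helios), Itgae and Tox2, are also known from regulatory or activated T cells. Ccr4, a chemokine receptor, was 4.86-fold higher and lost its call without WT 2. The 9 and 2 calls became 4 and 0 without WT 1, 2 and 0 without WT 2, 6 and 1 without ON 2, and 1 lower call was left without ON 1, OFF 1 or OFF 2. The calls of Cd28 and Ikzf2 were lost without WT 1 or WT 2.

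Genes of regulatory T cells, which restrain immune responses, were higher in ON almost throughout the list. Of 24 tested 20 were called higher and 1 lower (median 2.36), against 11.5% and 4.57% over all genes; without WT 1 the rises were 11 and without WT 2 they were 9. Foxp3, the defining transcription factor (chromosome X, 7573644 to 7595245), was at 2.45 and 2.67 CPM in WT and 38.03 and 30.8 in ON (13.4-fold, log2 fold change 3.74 ± 0.42, adjusted p = 0.00233). Its locus overlaps 2 protein-coding genes on the other strand. OFF held 36.6 and 78.7 CPM of Foxp3, not called against ON (adjusted p = 0.263). Over the whole list OFF, set against the same WT libraries, had 19 called higher and 0 lower (median 2.6), so the rise was not particular to ON. Nrp1, the semaphorin receptor neuropilin 1, was at 4.78 and 4.42 CPM in WT and 29.1 and 25.3 in ON (5.90-fold, adjusted p = 4.12e-04), and Tnfrsf4, the costimulatory receptor OX40, at 8.13 and 7.85 against 41.3 and 35.1 (4.78-fold, adjusted p = 7.25e-05). Tnfrsf4 was lower in OFF, at 18.4 and 20.7 CPM (adjusted p = 0.0219 against ON). Ikzf2 and Izumo1r, the folate receptor FR4, were 11.05-fold and 1.72-fold higher, Ikzf2 losing its call without WT 1 or WT 2 and Izumo1r without WT 2. The fall was Nt5e, which encodes the ectoenzyme CD73 and lost its call without WT 1. In a bulk sample more cells of a type and more RNA per cell cannot be told apart, here and in every list below.

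Many inhibitory receptors, which dampen activated T cells, were higher too. Of 17 tested 9 (52.9%) were called higher and 1 (5.88%) lower, beside 11.5% and 4.57% over all genes tested (median 1.02). The fall was again Nt5e, which encodes an ectoenzyme and not a receptor. In OFF, set against the same WT libraries, 12 were called higher and 0 lower (median 1.72). The rises were 7 and 6 without WT 1 and WT 2. Pdcd1, PD-1, was at 2.75 and 3.37 CPM in WT and 36.5 and 37.4 in ON (12.03-fold, log2 fold change 3.59 ± 0.22, adjusted p = 3.30e-05). Tigit was at 0.359 and 1.22 CPM in WT and 44.7 and 31.1 in ON (47.3-fold, adjusted p = 1.16e-04), and Havcr2, TIM-3, at 0.897 and 0.581 against 26.9 and 16.5 (29.1-fold, adjusted p = 2.77e-04). Pdcd1 and Tigit were not called between OFF and ON (adjusted p = 0.169 and 0.0955), and Havcr2 was lower in OFF, at 5.03 and 9.13 CPM (adjusted p = 0.0482). Of 17 genes of T cell anergy, a state of blunted response to antigen, 6 were called higher and 1 lower (median 0.27). Egr2, an inducer of that state, was at 10.8 and 10.5 CPM in WT and 24.3 and 25.7 in ON (2.36-fold) and lost its call without WT 2. The anergy rises were 3 without WT 1 and 1 without WT 2, and the lower call of Nt5e was absent without WT 1 in both lists.

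**Figure D3:**
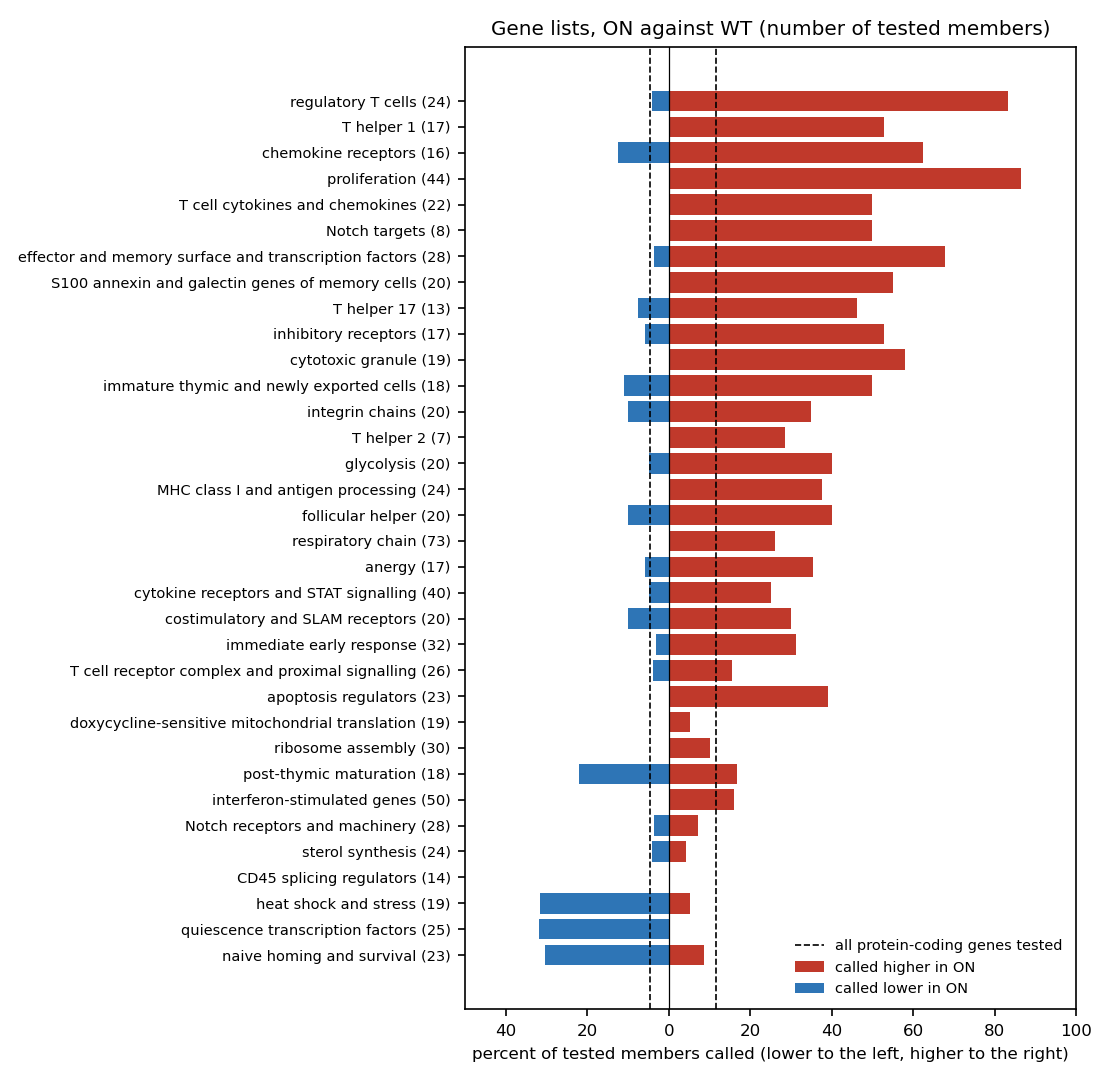
Percent of the tested members of each of 34 gene lists called higher (right, red) or lower (left, blue) in ON than in WT, ordered by the median log2 fold change of the list, with the number of tested members in brackets. Dashed lines mark the shares over all protein-coding genes tested, 11.5% and 4.57%; proliferation, with 38 of 44 called higher, and regulatory T cells, with 20 of 24, reach furthest to the right.

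Genes of several helper lineage lists were higher, but these lists share members with each other and with other lists. Maf and Il21 stand in both the T helper 17 and the follicular list. Irf4 of the T helper 17 list is also in the immediate early list. Havcr2 (T helper 1) and Pdcd1 (follicular) are also in the inhibitory receptor list. Over all genes tested 11.5% were called higher and 4.57% lower. OFF, set against the same WT libraries, had 7, 5, 8 and 4 called higher in the T helper 1, T helper 17, follicular and T helper 2 lists. For ON, in the T helper 1 list 9 of 17 tested genes were called higher and none lower (median 2.09). Eomes, a T-box factor of cytotoxic and memory cells, was at 7.42 and 5.41 CPM in WT and 70.8 and 43.1 in ON (8.88-fold, adjusted p = 1.70e-04). Ifng, interferon gamma, was at 1.14 and 0.640 CPM in WT and 17.7 and 9.91 in ON (15.5-fold, log2 fold change 3.95 ± 0.52, adjusted p = 0.00222), and Il12rb1, a chain of the interleukin 12 receptor, at 4.13 and 4.19 against 30.8 and 19.1 (5.98-fold). In the T helper 17 list 6 of 13 were called higher and 1 lower (median 1.15), among them Maf, which drives Il10 and Il21, at 11.2 and 10.8 CPM in WT and 90.8 and 74.7 in ON (7.50-fold, adjusted p = 6.42e-05) and 29.1 and 43.0 in OFF. Il17a and Il17f, the cytokines that name this lineage, were under the filter with at most 4 counts in any WT or ON library. Il21, a cytokine of follicular helper cells, was at 0.419 and 0.698 CPM in WT and 10.1 and 7.04 in ON (15.1-fold, adjusted p = 8.89e-04), and OFF at 1.16 and 2.40 was below ON (adjusted p = 0.0251). The follicular list had 8 of 20 called higher and 2 lower (median 0.38), and the T helper 2 list 2 of 7, both chemokine receptor genes, with Il4, Il5 and Il13 under the filter. Without WT 1 the rises were 7, 4, 4 and 1 in the T helper 1, T helper 17, follicular and T helper 2 lists, and without WT 2 they were 4, 4, 3 and 1. Without ON 1 they were 5, 6, 5 and 1, and the T helper 17 and follicular falls were mostly lost, with 0 and 0 without WT 1 or WT 2, 0 and 1 without ON 1 and 0 and 2 without OFF 1.

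Many effector and memory genes were higher. Of 28 surface and transcription factor genes 19 were called higher and 1 lower (median 1.29), beside 11.5% and 4.57% over all genes tested. OFF, set against the same WT libraries, had 17 called higher and 0 lower (median 1.45). Il2rb, the beta chain of the interleukin 2 and 15 receptors, was at 25.1 and 16.5 CPM in WT and 227 and 173 in ON (9.62-fold, log2 fold change 3.27 ± 0.29, adjusted p = 6.22e-04). Irf8, a transcription factor, was at 7.60 and 7.21 CPM in WT and 47.0 and 44.1 in ON (6.15-fold, adjusted p = 2.44e-05), and Runx2 at 1.67 and 1.80 against 21.7 and 14.9 (10.5-fold). In OFF, Irf8 was at 48.8 and 53.5 CPM and Runx2 at 22.6 and 33.4, neither called against ON (adjusted p = 0.500 and 0.189). Cd44, the adhesion receptor used to tell memory from naive cells, was at 46.5 and 33.5 CPM in WT and 69.3 and 64.4 in ON (1.67-fold, adjusted p = 0.0396), a call lost without any of the 4 WT and ON libraries. Of 22 cytokine and chemokine genes tested 11 were called higher and none lower (median 1.44), of 19 cytotoxic granule genes 11 and none (median 0.98), and of 20 S100, annexin and galectin genes of memory cells 11 and none (median 1.19). Serpinb6b, a granzyme inhibitor, was at 6.52 and 8.26 CPM in WT, 43.2 and 27.2 in ON, next to 10.9 and 11.4 in OFF, higher in ON than in WT (4.76-fold, adjusted p = 6.18e-04) and than in OFF (adjusted p = 0.0122). Ahnak, a giant scaffold protein gene, was at 135 and 98.1 CPM in WT and 615 and 387 in ON (4.29-fold), a call lost without WT 2. The 4 lists had 11, 6, 6 and 1 rises without WT 1 and 9, 6, 6 and 0 without WT 2; the S100 list had 7 without ON 1 and 6 without ON 2. The 1 fall, of Cd40lg, was lost without WT 1, WT 2 or ON 1, and 1 cytotoxic gene was called lower without OFF 1 or OFF 2.

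Receptors for migration and adhesion followed. Of 16 chemokine receptor genes tested 10 were called higher and 2 lower (median 2.07), beside 11.5% and 4.57% over all genes tested. OFF, set against the same WT libraries, had 9 called higher and 1 lower (median 2.15). Cx3cr1, the receptor for fractalkine, was at 2.21 and 0.523 CPM in WT and 12.2 and 8.82 in ON (7.70-fold, adjusted p = 0.00389), although its locus overlaps 5 protein-coding genes. Of 20 integrin chains 7 were called higher and 2 lower (median 0.62). Itgal, the alpha chain of LFA-1, was at 282 and 293 CPM in WT and 571 and 587 in ON (2.01-fold, adjusted p = 7.81e-04). Its partner Itgb2 was 1.80-fold higher and Itga6, a laminin receptor chain, 1.70-fold lower, and both lost their call without WT 1 or WT 2. Of 20 costimulatory and SLAM receptors 6 were called higher and 2 lower (median 0.24). Of 40 cytokine receptor and STAT genes 10 (25%) were called higher and 2 (5%) lower, the latter close to the share over all genes (median 0.26). Il10ra, the interleukin 10 receptor, was at 26.4 and 23.4 CPM in WT and 86.8 and 114 in ON (4.03-fold, adjusted p = 1.04e-04). The rises in these 4 lists were 4, 2, 2 and 7 without WT 1, 2, 2, 1 and 7 without WT 2, 5, 3, 6 and 8 without ON 1 and 5, 6, 6 and 13 without ON 2. The falls were 1, 0, 0 and 1 without WT 1 and also without WT 2, 1, 2, 1 and 2 without ON 1, and 3, 1, 1 and 3 without ON 2; without OFF 1 or OFF 2 the chemokine receptor falls were 1, that of Cxcr4.

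T cell receptor components stood near the background. Of 26 genes of the receptor complex and its first signalling steps 4 were called higher and 1 lower (median 0.22): the kinase genes Fyn (1.42-fold) and Zap70 (1.40-fold), the phosphatase gene Ptpn6 (1.61-fold) and the adaptor gene Lat (1.35-fold). Each of the 4 was lost without WT 1 or WT 2, and the list had 7 rises without ON 1 and 2 without ON 2; its fall, Themis, was 0 without WT 1 or WT 2 and 2 falls stood without ON 1 or ON 2. Cd3e was at 328 and 307 CPM in WT and 417 and 421 in ON (adjusted p = 0.0607). Of 32 immediate early genes, which respond within minutes to receptor signals or to handling of cells, 10 (31.2%) were called higher and 1 (3.12%) lower (median 0.23). Over all genes tested the shares were 11.5% and 4.57%. OFF, set against the same WT libraries, had 10 called higher and 0 lower (median 0.48). Irf4, induced by receptor signals, was at 6.76 and 7.73 CPM in WT and 35.0 and 27.7 in ON (4.31-fold, adjusted p = 5.38e-04), and Dusp4, a phosphatase of MAP kinases, at 1.85 and 1.45 against 21.2 and 14.3 (10.7-fold, adjusted p = 0.00177). Nr4a1, NUR77, was at 38.2 and 36.2 CPM in WT, 64.7 and 75.5 in ON, next to 97.2 and 110.2 in OFF (1.88-fold higher in ON than in WT, lost without WT 2). The immediate early rises were 4 without WT 1 and 2 without WT 2, and the fall, of Dusp2, was lost without any of the 6 libraries.

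Cell cycle genes were higher in ON for nearly the whole list, and in OFF, set against the same WT libraries, for 24 of 44 (median 1.48). The counts that follow are for ON, beside 11.5% higher and 4.57% lower over all genes tested. Of 44 proliferation genes, all tested, 38 were called higher and none lower (median 1.93), and 14 of these held with any library left out. Mcm3, a subunit of the replicative helicase, was at 54.4 and 59.5 CPM in WT and 149 and 144 in ON (2.57-fold, log2 fold change 1.36 ± 0.13, adjusted p = 2.90e-04). Aurkb, the mitotic kinase Aurora B, was at 0.897 and 0.581 CPM in WT and 19.2 and 10.2 in ON (19.7-fold, adjusted p = 0.00163), with OFF at 7.28 and 13.8. Stmn1, which destabilises microtubules, was at 34.9 and 28.4 CPM in WT and 106 and 85.7 in ON (3.03-fold), and E2f2, a cell cycle transcription factor, at 19.3 and 19.8 against 56.9 and 46.1 (2.63-fold). Hmgb2, a chromatin protein of dividing cells, was at 138 and 113 CPM in WT, 602 and 425 in ON, next to 223 and 292 in OFF (4.09-fold over WT, adjusted p = 3.95e-04). In each of these 5 genes ON 1 was above ON 2, and the whole list summed to 1545 and 1567 CPM in WT, 4196 in ON 1 and 2784 in ON 2. The 6 members not called were Cdk2, Cdk4, Ccnd2, Ccnd3, Cdt1 and Pcna. The count was 16 without WT 1 and 14 without WT 2.

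Metabolic genes moved less. Of 73 respiratory chain genes 19 were called higher and none lower (median 0.34), a shift of small size: Cox5b, a subunit of cytochrome c oxidase, was at 42.5 and 39.7 CPM in WT and 85.7 and 73.6 in ON (1.94-fold, adjusted p = 0.00328), and no member called rose 2-fold or more. The 19 were 2 without WT 1, 0 without WT 2 and 10 with the replicate block, and Cox5b lost its call without WT 2. Of 20 glycolysis genes 8 were called higher and 1 lower (median 0.41). Slc2a3, a glucose transporter, was at 28.0 and 25.6 CPM in WT and 46.1 and 43.3 in ON (1.67-fold). That call was lost without WT 1 or WT 2. Pdk1, a kinase that inhibits pyruvate dehydrogenase, was 1.48-fold lower, a call lost likewise. The glycolysis rises were 1 without WT 1, 0 without WT 2, 5 without ON 1 and 4 with the replicate block. Genes of ribosome assembly (3 of 30 higher), sterol synthesis (1 higher and 1 lower of 24) and the mitochondrial translation list (1 of 19 higher) stood at or below the shares over all genes, 11.5% and 4.57%. The 1 call of the mitochondrial translation list was the stress gene Ddit3, which is counted again in the heat shock list below. Ncl, nucleolin, was at 882 and 911 CPM in WT and 1213 and 1745 in ON (1.65-fold, adjusted p = 0.0214), lost without WT 1 or WT 2. These 3 lists had 0 calls without WT 1 or WT 2, while without ON 1 the ribosome assembly and mitochondrial translation rises were 10 and 3, and without ON 2 they were 1 and 0; 1 ribosome assembly gene was called lower without ON 2, and the sterol list had no call without ON 1.

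Among genes of antigen processing by MHC class I, 9 of 24 were called higher and none lower (median 0.40), 1 without WT 1 and 1 without WT 2. H2-Q6 alone kept its call with any library left out. Psmb8, an immunoproteasome subunit, was at 211 and 224 CPM in WT and 342 and 341 in ON (1.57-fold, lost without WT 1 or WT 2). Interferon-stimulated genes gave 8 of 50 (16%) called higher and none lower, beside 11.5% and 4.57% over all genes tested. Their median of 0.09 was close to that over all genes. Gbp3, a guanylate-binding protein gene, was at 12.9 and 15.2 CPM in WT and 57.1 and 44.3 in ON (3.62-fold, adjusted p = 2.99e-04). The 8 were 1 without WT 1, 2 without WT 2 and 5 without ON 1, where 1 gene was also called lower. Of 23 apoptosis regulators 9 were called higher and none lower (median 0.19), and members of opposite effect rose. Pmaip1, the death-promoting NOXA, was at 3.17 and 2.33 CPM in WT and 34.7 and 31.6 in ON (12.04-fold, log2 fold change 3.59 ± 0.20, adjusted p = 2.58e-05), and the protective Bcl2l1 was 1.61-fold higher, lost without WT 1 or WT 2. The 9 were 2 without WT 1 and 2 without WT 2, and 6 without ON 1; 1 gene was called lower without ON 2, OFF 1 or OFF 2. Of 19 heat shock genes 6 were called lower and 1 higher (median -0.22), and the list's summed level did not separate the groups, at 4918 and 5480 CPM in WT and 4808 and 5741 in ON. Hsph1, a chaperone, was at 112 and 167 CPM in WT and 51.7 and 59.2 in ON (2.51-fold lower, adjusted p = 0.00205), and Hspa1b, an inducible HSP70 with a near-identical copy, at 4.55 and 12.7 against 0.460 and 1.14, lost without ON 1. The 6 were 2 without WT 2, and the rise, of Ddit3, was 0 without WT 1 or WT 2 and 2 without ON 1. Heat shock genes respond to handling of cells, and how the WT and ON samples were handled relative to each other was not tested.

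The sort graded cells by CD45RB, a product of alternative splicing of Ptprc. Ptprc as a whole was at 1677 and 1698 CPM in WT and 1908 and 1669.8 in ON (adjusted p = 0.711), and a gene count cannot show isoforms. Hnrnpll, a splicing factor that removes the CD45RB exon, was at 38.7 and 37.2 CPM in WT and 41.0 and 37.5 in ON (adjusted p = 0.830). None of the 14 genes of CD45 splicing was called in either direction by edgeR, and without ON 1 there were 2 called lower.

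Markers of other cell types moved with the groups, and their part in the rises above was not tested. Of 19 B cell markers tested 9 were called higher and 1 lower (median 1.37), beside 11.5% and 4.57% over all genes tested. OFF, set against the same WT libraries, had 17 called higher and 0 lower (median 2.16). The list summed to 270.4 and 238 CPM in WT and 629 and 524 in ON. Most of the ON sum came from MHC class II genes, which dendritic cells carry too. H2-Ab1 was at 11.7 and 9.13 CPM in WT and 111 and 92.6 in ON (9.77-fold, adjusted p = 2.44e-05), and Cd74, the class II invariant chain, at 29.9 and 22.3 against 202 and 176 (7.22-fold). Cd79a, a defining B cell gene, was low, at 1.20 and 0.814 CPM in WT and 2.04 and 2.28 in ON. Both ON values of Cd79a were above both WT values. The 1 member called lower in ON was Ighm, the most abundant marker in WT, at 194 and 177 against 139.99 and 125 (1.40-fold, adjusted p = 0.0320, lost without WT 1, WT 2 or ON 2). Of 19 myeloid and dendritic markers 9 were called higher, with sums of 54.9 and 48.3 CPM in WT and 116 and 127 in ON. Lyz2 was at 6.28 and 7.44 CPM in WT and 13.1 and 13.7 in ON (lost without any WT or ON library) and Itgax, CD11c, at 2.99 and 2.03 against 18.8 and 16.2 (6.96-fold, adjusted p = 1.61e-04). The natural killer list, 2 of 5 tested members higher, summed to 27.8 and 21.2 CPM in WT and 128 and 68.8 in ON, the rises being Eomes and Gzma, and the other 5 of its 10 members were under the filter. CD8 markers summed to 14.4 and 13.8 CPM in WT and 18.1 and 23.7 in ON. Of 4 plasma cell markers 1, Jchain, was called higher (lost without WT 1 or WT 2), and of 6 gamma delta and innate-like markers Trdc was called higher and Zbtb16 lower (both lost without WT 1, WT 2 or ON 1). No neutrophil, erythroid, platelet, stromal or endothelial marker of the 11 tested was called by edgeR. The B cell rises were 5 without WT 1 or WT 2, the myeloid rises 3 and 1, and the natural killer rises 1 and 1, also 1 without OFF 1 or OFF 2.

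**Figure D4:**
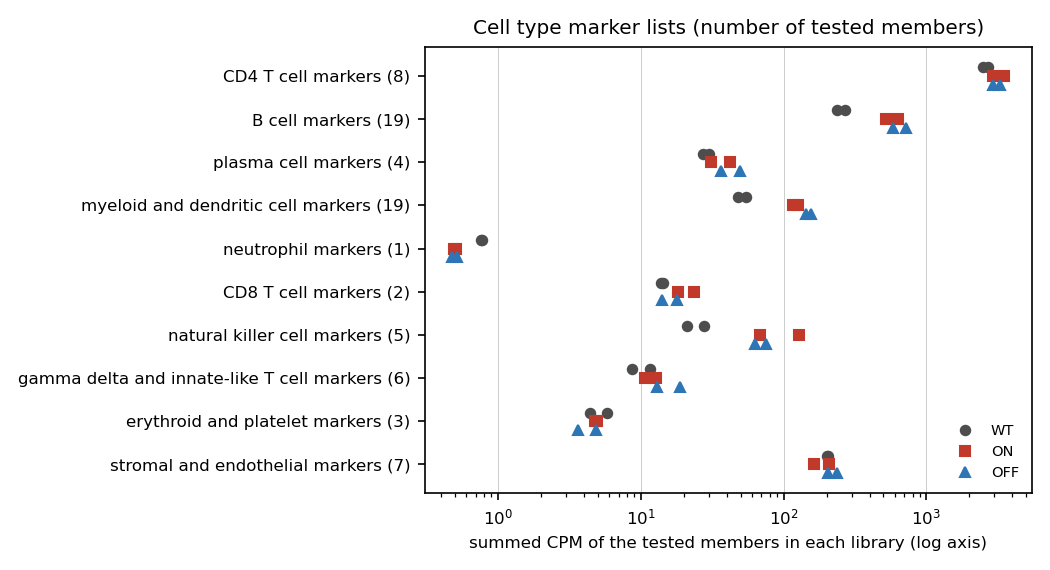
Summed CPM of the tested members of each of 10 marker lists (log axis), 1 point per library of WT (circles), ON (squares) and OFF (triangles). The CD4 T cell sum is the highest in every library; B cell sums are 270.4 and 238 CPM in WT and 629 and 524 in ON, and the erythroid and stromal sums of the groups overlap.

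The called genes also differed in size. The median span on the genome, introns included, was 18.8 kb for genes called higher, 52.7 kb for genes called lower and 26.0 kb for genes not called. When the 12667 genes were divided into 5 bins of equal number by span, the share called higher was 14.9% in the bin of the shortest genes and 8.09% in the longest, and the share called lower 2.09% and 8.998%. The median log2 fold change ran from 0.16 to -0.16. Without WT 1 the shares called higher were 3.20% and 2.68% and the shares called lower 0.355% and 1.46%, with medians of 0.19 and -0.09. Without WT 2 they were 2.49% and 2.25% higher and 0.276% and 0.868% lower, with medians of 0.17 and -0.17, so the difference in the share called higher was mostly lost in both. Set beside it, the median of OFF against the same WT libraries ran from 0.08 to -0.07.

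**Figure D5:**
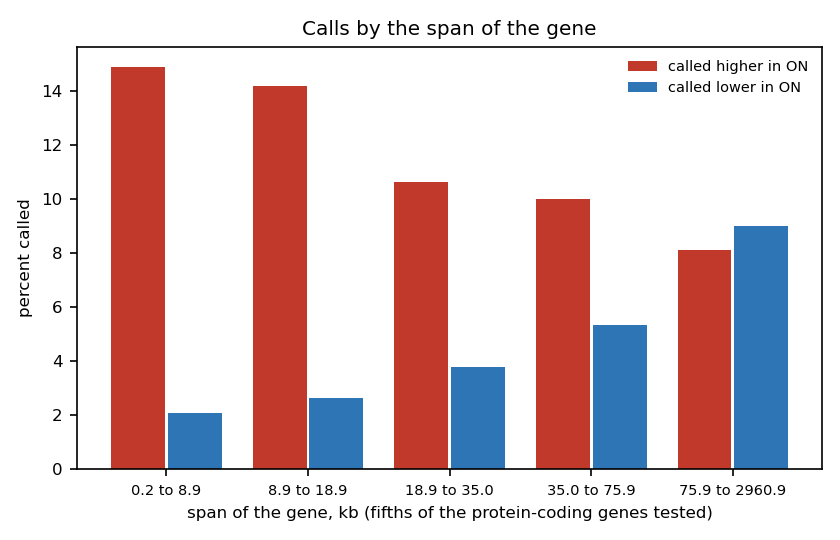
Percent of protein-coding genes called higher (red) or lower (blue) in ON than in WT (vertical axis, from 0) in 5 bins by the span of the gene in kb (horizontal axis). The share called lower is 2.09% in the bin of the shortest genes and 8.998% in that of the longest, and the share called higher is 14.9% and 8.09%.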

How the data were processed

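Total RNA of sorted spleen CD4 T cells was sequenced on a NovaSeq instrument and aligned to GRCm38, per the labels. The authors deposited 1 table of raw counts per gene, not normalized; edgeR and R 3.6.2 stand in the submitters' processing notes, with aligner, counter, strand setting and annotation not given in the sources used here. Left out of library sizes and tests were the 5 summary categories, such as reads with no feature (22.3% to 27.1% of WT and ON reads) and reads not aligned.

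Identifiers were matched to GENCODE mouse release 21 (47310 of 47729). Genes were kept by filterByExpr (minimum count 10, total 15), leaving 15780, and scaled by TMM. All 6 libraries entered edgeR's quasi-likelihood test (robust, group means only, 3 residual degrees of freedom); Benjamini-Hochberg adjustment ran over all genes tested. CPM are TMM-scaled. The fits used edgeR 4.0.16 in R 4.3.3, and alternatives DESeq2 1.42.0 and limma 3.58.1. The steps were also run on simulated counts, with equal numbers of genes raised and lowered and the same spread in every group. These data differ from that setting in both, so the run does not show how accurate the calls here are. Counting intervals are exact and cover counting error only.

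The comparison and its 44 gene lists (34 of pathways and states, 10 of markers) were chosen with earlier results of these data known. A list is described by its calls and median. Named genes were a fixed set, the 15 largest rises and 15 largest falls that were called in every fit leaving out 1 library and had a mean CPM of at least 5 in the higher group (no predicted genes, immunoglobulin, T cell receptor, haemoglobin, mitochondrial or Y-linked genes), up to 4 called members of each list and the 2 most abundant of each marker list. Genes said to be named after their values were seen, and list members given only as counted or not called, fall outside it; a few genes that the rule names are not reported here. The promoter windows matched 79.98% of tested genes, under 80%, so a comparison of motif shares is void and not made. Alternatives were other scalings, filters and tools, only WT and ON libraries, only protein-coding genes, stricter thresholds, a replicate block and each library left out.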

Additional observations from a re-analysis of the deposited data

How the results depend on the processing

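Called protein-coding genes numbered 2042 and called genes of all kinds 2342. With the replicate block these were 1264 and 1441, with an adjusted p under 0.01 682 and 758, and with a change of at least 2-fold 977 and 1199. With 1 library left out they ranged from 325 to 2067 and from 368 to 2398, the lowest without WT 2, followed by 439 and 494 without WT 1. Other settings gave 1467 to 2163 protein-coding calls, 1467 without a filter on low counts. WT and ON libraries share only replicate numbers, and deviations of same-numbered libraries had a correlation of 0.0771 over genes, so the block is no evidence on pairing.

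A few changes near 0 turned sign. The Hnrnpll log2 fold change was -0.023 with upper quartile scaling. The Sfpq log2 fold change was 0.014 without a filter on low counts and ranged from -0.14 to 0.11 with 1 library left out (above 0 without WT 2 or ON 1). The Cd8b1 log2 fold change ranged from -0.070 (without ON 2) to 0.45 (without ON 1), and the Pecam1 log2 fold change from -0.29 (without ON 2) to 0.049 (without ON 1). The cause was not tested. With 1 library left out, the lone library of its group is assumed to vary like the others. Genes under about 1 CPM have wide counting errors: of 1714 genes tested below a mean of 1 CPM, 36 were called higher and 26 lower.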

Other observations

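Groups of genes that share a symbol prefix were looked at after their values were seen and are given as counts, with no test. Of 58 histone genes tested (prefix Hist), which package new DNA, 41 were called higher in ON than in WT and none lower, beside 11.5% and 4.57% over all genes (median log2 fold change 2.31; 1.94 for OFF, set against the same WT libraries). Hist1h2be was at 36.1 and 34.2 CPM in WT and 137 and 92.2 in ON (3.27-fold, adjusted p = 0.00205), and the linker histone gene Hist1h1c at 319.8 and 298 against 899 and 637 (2.48-fold, adjusted p = 0.00250). Members of the clusters are similar in sequence, so the counts of single members are uncertain. The 41 became 4 without WT 1 or WT 2, 28 without OFF 1, 24 without OFF 2 and 21 with limma-voom or without a filter. Of 35 kinesin genes (prefix Kif), motors of the spindle among them, 12 were called higher and none lower, 3 without WT 1 or WT 2; Kif18b was at 1.32 and 1.40 CPM in WT and 19.5 and 10.4 in ON (10.95-fold, adjusted p = 0.00115). Of 334 zinc finger genes (prefix Zfp) 5 were called higher and 25 lower (median -0.20), beside 11.5% and 4.57% over all genes tested, and 0 and 1 without WT 1 or WT 2. Zfp871 was at 80.4 and 90.8 CPM in WT and 46.3 and 35.2 in ON (2.10-fold lower, adjusted p = 0.00481, lost without WT 2). Of 45 deubiquitinase genes (prefix Usp) none was called higher and 6 lower, again beside 4.57% over all genes, each lost without WT 1 or WT 2; Usp53 was at 58.6 and 53.6 CPM in WT and 28.7 and 32.6 in ON (1.83-fold lower, adjusted p = 0.00565).

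Some of the largest differences stood outside the 15 named above because they lost their call when 1 library was left out. They were chosen after their values were seen. Gcg, which encodes proglucagon, the precursor of glucagon and GLP-1, had 0 counts in both WT libraries and 706 in ON. It was at 27.96 and 7.88 CPM in ON and 1.10 and 4.57 in OFF (adjusted p = 0.0231 for ON against WT), with adjusted p of 0.154 to 0.254 without WT 1, WT 2, OFF 1 or OFF 2. Gzmb, granzyme B, was at 1.44 and 0.756 CPM in WT, 226 and 77.7 in ON, next to 29.9 and 94.6 in OFF (138-fold, adjusted p = 0.0183; 0.176 without WT 1, 0.150 without WT 2 and 0.0689 without OFF 2). Penk, the proenkephalin gene, was at 0.778 and 0.349 CPM in WT, 44.4 and 16.4 in ON, next to 4.68 and 8.29 in OFF (53.5-fold, adjusted p = 0.00529; 0.0788 without WT 1 and 0.0823 without WT 2). Lgals3, galectin 3, was at 0.359 and 0.349 CPM in WT and 25.9 and 9.91 in ON (49.6-fold, adjusted p = 0.0144; 0.185 without WT 1 and 0.156 without WT 2). In all 4 genes ON 1 was more than 2-fold above ON 2.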
